A study of Mus musculus with 19 samples.

Results

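Liver RNA of 6 Homo mice was compared with that of 7 WT mice, 13 of the 19 mice of the series, chosen by the genotype label of each library. Homo, Het and WT are genotypes at Pkd1, with both copies mutant, 1 copy mutant and none, and the mice are littermates per the submitters' design text. Every mouse, WT included, had received AAV-Cre, an adeno-associated virus that delivers Cre recombinase, and every mouse was kept for 3 months on Western diet plus carbon tetrachloride (CCl4). Western diet is rich in fat and sugar and CCl4 injures hepatocytes, and together they are used to bring about non-alcoholic steatohepatitis (NASH), fatty liver with inflammation. No mouse of the series was kept without them. Homo mice are the mice numbered 8, 10, 15, 16, 17 and 18 in the sample titles, and WT mice are those numbered 1, 2, 3, 9, 11, 12 and 13. The labels name no promoter or serotype of the virus, no deleted part of Pkd1, and no age, no sex and not which mice shared a litter. They also do not give the share of liver cells in which Cre acted, so both copies need not be mutant in every cell of a Homo liver. The title of the series sets Pkd1 mutant clones against steatohepatitis and cancer.

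Pkd1 encodes polycystin-1, a large membrane protein that works with the channel protein polycystin-2 and sits in part in the primary cilium. Its loss in kidney tubules or in bile ducts leads to cysts lined by proliferating epithelium, as in autosomal dominant polycystic kidney disease, which often involves the liver. The liver is made mostly of hepatocytes, which hold the metabolic enzymes, whereas cholangiocytes line the bile ducts and are marked by keratins 7 and 19. Hepatocytes in injured livers can take on some cholangiocyte genes. Bulk RNA gives 1 value per gene for the whole tissue, so more cells of a type and more RNA per cell cannot be told apart.

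Libraries held 32.0 to 42.1 M counts (M for mega) in Homo and 33.1 to 39.9 M in WT, and levels are given as CPM, counts of the gene per M counts of the library. Hepatocyte RNA dominated in both genotypes: Alb, albumin, stood at 8422 to 13652 CPM in Homo and at 7898 to 11364 CPM in WT. The level of many genes followed the mouse number of the titles, whose meaning the labels do not give. Among 16463 genes tested, 1054 had a slope on mouse number with an edgeR adjusted p under 0.05, and WT holds mice 1 to 3 whereas 4 of the 6 Homo mice are numbered 15 to 18. Mouse number was therefore a covariate in every test below unless the text says otherwise. A gene is called where the adjusted p of edgeR's quasi-likelihood test is under 0.05, log2 fold changes are Homo over WT at equal mouse number, and ± after one is its standard error. Pancreatic acinar genes, 13 digestive enzyme genes, summed to 204 CPM in Homo mouse 8 and to 327 CPM in Homo mouse 17. In WT, 6 of the 13 had any count, and Cela1, an elastase gene, alone stood at 1.35 to 3.02 CPM. In the other 4 Homo libraries the 13 genes summed to 1.45 to 2.05 CPM, against 1.55 to 3.23 CPM in the WT libraries, and a Het mouse, number 19, held 158 CPM. Values without mice 8, 17 and 19 are given beside the counts of the main gene lists.

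Pkd1 (chromosome 17, 24548689 to 24596514, GRCm38) checks the labels only in part, since a count over the whole gene includes exons that a partial deletion leaves. The count also includes RNA of any cells in which Cre did not act. Pkd1 stood at 334 CPM at the lowest, 354 at the median and 380.0 at the highest in Homo, against 328, 412 and 452 CPM in WT. All Homo values lay inside the WT range. The log2 fold change was -0.27 ± 0.07 (edgeR adjusted p = 0.212). An exact two-sided permutation test of log2 CPM over the mice, with no mouse number, gave p = 0.0251 over 1716 arrangements. Pkd2, which encodes polycystin-2, differed by 0.25 ± 0.30 (edgeR adjusted p = 0.927). Tsc2, the neighbour whose end meets that of Pkd1 and whose protein restrains mTORC1, differed by -0.18 ± 0.06 (edgeR adjusted p = 0.406).

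In all, 38 genes were called, 0.231% of those tested: 24 higher (0.146%) and 14 lower (0.085%) in Homo. Most of the transcriptome lay close to equality. The median absolute log2 fold change was 0.12 over all genes and 1.00 over the called ones, 66.5% of genes were within 0.2 of 0, and no called gene changed by less than 0.45. In 32 of the 38 called genes the 6 Homo and the 7 WT mice did not overlap, 21 higher and 11 lower. Over all genes tested, all 6 Homo mice lay above all 7 WT mice in 87 (0.528%) and below them in 63 (0.383%). At an unadjusted p under 0.05, 693 genes (4.21%) were higher and 610 (3.71%) lower, shares that serve below as the background for gene groups. Without mouse number in the fit 79 genes were called (0.48%), 31 of them among the 38. The 7 that lost their call there were Col12a1, Dynlt1b, Gm7072, Plscr2, Slc25a30, Tjap1 and Tmem8b (edgeR adjusted p between 0.0549 and 0.457). Without mice 8, 17 and 19, which leaves 4 Homo mice, 15 of the 38 and no other gene were called, 10 on chromosome 17 and 5 elsewhere, and leaving out Homo mouse 8 alone or Homo mouse 10 alone left 17. The called genes are described in turn as genes known from epithelia, a few others and genes of chromosome 17.

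**Figure D1:**
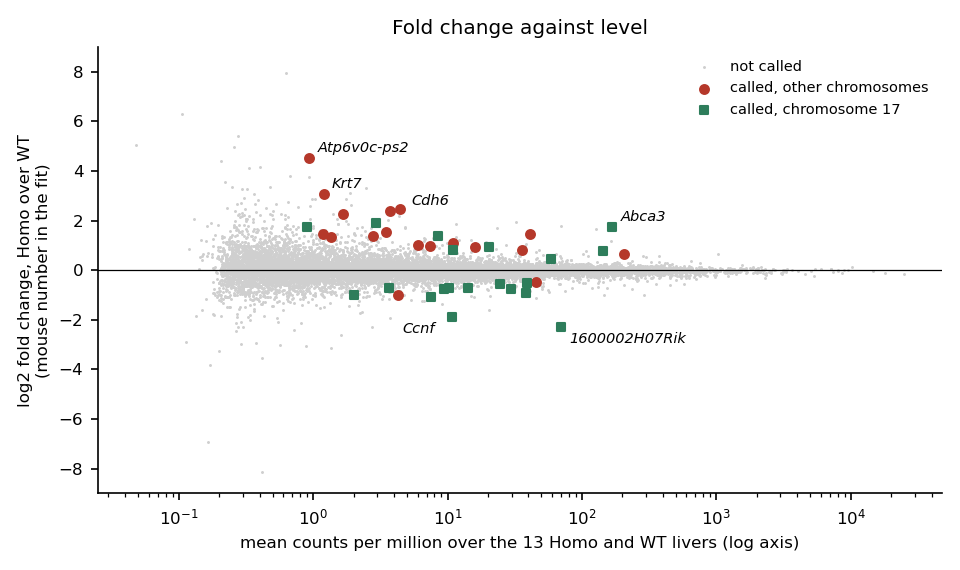
Log2 fold change of Homo over WT, with mouse number in the fit, against the mean level in the 13 livers in CPM on a log axis. Grey points are genes not called, red circles the 18 called genes outside chromosome 17 and green squares the 20 called genes of chromosome 17; the red circles lie mostly above 0 (16 of 18) and the squares on both sides (8 above, 12 below).

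Krt7 and Krt19, the keratins that mark bile ducts, and other genes known from epithelia were among the called genes outside chromosome 17. A set of 10 was put together after their values were seen, so the grouping itself is no result: Krt7, Krt19, Cdh6, Klf5, Bcam, Itgb4, Ano1, Arhgef28, S100a6 and Sema3c. Only Krt7 and Krt19 of the set are in the list of bile duct markers described below. Fold changes of the 10 ran from 2.17-fold for Itgb4 to 8.37-fold for Krt7. Depth was thinnest for Krt7, with 39 to 148 counts per library in Homo and 3 to 21 in WT.

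Krt7, a keratin of the cholangiocyte skeleton (chromosome 15, 101412403 to 101427806), stood at 1.03, 2.25 and 4.19 CPM (lowest, median and highest) in Homo and at 0.0755, 0.240 and 0.584 CPM in WT. No Homo liver was as low as the highest WT liver, and the difference was 3.07 ± 0.44 on the log2 scale (edgeR adjusted p = 0.00238). Krt19, its keratin partner (chromosome 11, 100140810 to 100145926), was at 3.36, 6.63 and 10.1 CPM in Homo and at 0.293, 1.01 and 2.99 CPM in WT, a difference of 2.37 ± 0.42 (edgeR adjusted p = 0.0191). The groups again did not overlap, but the lowest Homo liver, mouse 17, was only slightly above the highest WT liver, mouse 13. Cdh6, a cadherin of embryonic kidney tubules and of ducts (chromosome 15, 13028699 to 13176407), was at 3.06, 7.39 and 12.1 CPM in Homo and at 0.807, 1.17 and 2.67 CPM in WT (2.47 ± 0.40, edgeR adjusted p = 0.00843). Klf5, a transcription factor of dividing epithelia, was at 1.45, 2.23 and 5.04 CPM in Homo and at 0.176, 0.643 and 0.957 CPM in WT (2.27 ± 0.43, edgeR adjusted p = 0.0311). Het livers averaged 0.341 CPM for Krt7, 0.836 for Krt19, 1.56 for Cdh6 and 0.531 for Klf5.

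The next genes encode proteins that tie epithelial cells to laminin or move ions. Bcam, a laminin-binding adhesion protein, was at 2.74, 3.94 and 6.35 CPM in Homo and at 1.35, 1.64 and 1.85 CPM in WT (1.40 ± 0.20, edgeR adjusted p = 0.00203). The WT livers were tightly grouped for it, and every Homo liver was above them. Itgb4, the integrin chain of hemidesmosomes, was at 10.8, 14.5 and 23.5 CPM in Homo and at 4.96, 7.27 and 10.9 CPM in WT (1.12 ± 0.22, edgeR adjusted p = 0.0329), with 5 of 6 Homo livers above all WT livers. Ano1, a calcium-activated chloride channel that secretes fluid, was at 39.6, 50.6 and 102 CPM in Homo and at 12.0, 22.5 and 38.9 CPM in WT (1.44 ± 0.30, edgeR adjusted p = 0.0479). Its groups were separated only narrowly, with 39.6 CPM in Homo mouse 17 next to 38.9 CPM in WT mouse 9. Arhgef28, a guanine nucleotide exchange factor, S100a6, a calcium-binding protein, and Sema3c, a secreted semaphorin, rose by 1.53 ± 0.30, 1.32 ± 0.26 and 1.47 ± 0.29, with edgeR adjusted p between 0.0329 and 0.041, and each had all Homo livers above all WT livers. 

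**Figure D2:**
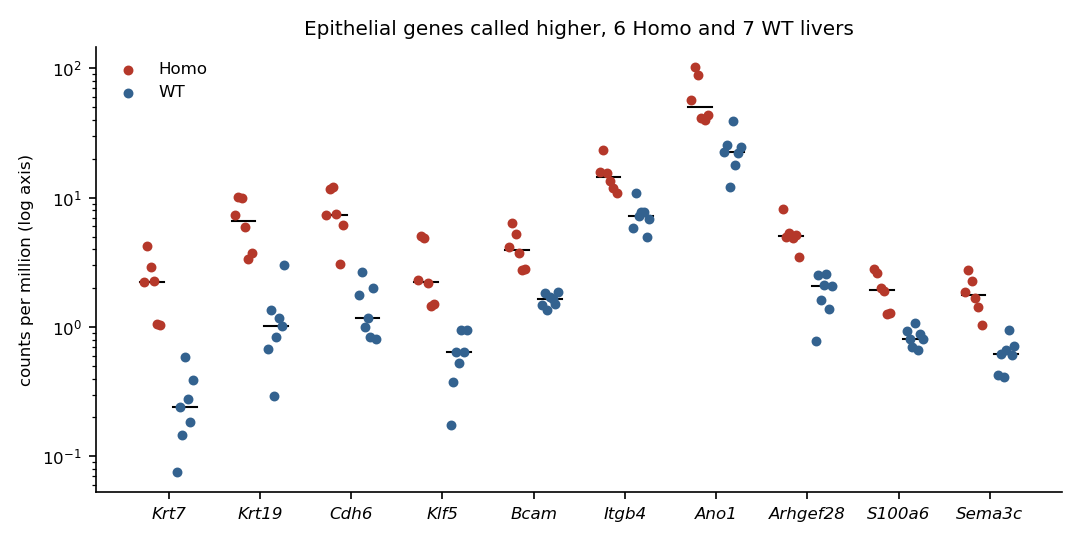
Level in CPM on a log axis of the set of 10 called genes put together after their values were seen. Each liver is 1 point, red for 6 Homo livers on the left and blue for 7 WT livers on the right of each gene, with a black line at the median. The red and blue points touch only for Itgb4, where the lowest Homo liver (10.8) lies under the highest WT liver (10.9).

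The Homo mice were not alike in these genes. Mouse 10 was the highest of the 6 Homo mice in 7 of the 10 genes, mouse 8 in 2 and mouse 15 in 1, whereas mouse 17 was the lowest in 6 and mouse 18 in 4. Calls of this group were sensitive to the choice of mice: Krt7 and Bcam kept theirs when any 1 of the 19 libraries was left out, Cdh6 lost it in 1 case and Krt19 in 3, while the other 6 lost it in 8 to 15 of the 19. Without mice 8, 17 and 19 the fold changes of Krt7 and Krt19 were 3.22 and 2.44, the first called (edgeR adjusted p = 0.0135) and the second not (edgeR adjusted p = 0.0912). Of the 10, Krt7, Cdh6 and Bcam were called without mice 8, 17 and 19, and the same 3 without WT mice 1 to 3.

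The start regions of Krt7 and Cdh6 are printed as those of a called keratin and a called cadherin. RefSeq (GRCm38.p6) gave a promoter of 300 bases, 250 before to 50 after the start, for 7 of the 10. The GC box, GGGCGG on either strand, is in 6 of these 7 and in 35.7% of all 32851 promoters of the table, the TEAD core GGAATG in none (14.7% of all) and the TATA box TATAAA in none (13.6% of all). The table also holds promoters of genes not tested here, and the 10 genes were picked by their values. These shares therefore cannot show a trait of the set. Krt7 (chr15:101412153-101412452, plus strand) holds 4 GC boxes and Cdh6 (chr15:13173626-13173925, minus strand) 2 that overlap, shown in capitals, and GC content is 66.3% and 53%. The other 5 promoters have 71% (Bcam), 71.7% (Ano1), 79.7% (Arhgef28), 75.7% (Sema3c) and 49.3% (S100a6, the one with no GC box), against a median of 52.7% over all promoters, so most of the 7 are richer in G and C than the median promoter.
Krt7: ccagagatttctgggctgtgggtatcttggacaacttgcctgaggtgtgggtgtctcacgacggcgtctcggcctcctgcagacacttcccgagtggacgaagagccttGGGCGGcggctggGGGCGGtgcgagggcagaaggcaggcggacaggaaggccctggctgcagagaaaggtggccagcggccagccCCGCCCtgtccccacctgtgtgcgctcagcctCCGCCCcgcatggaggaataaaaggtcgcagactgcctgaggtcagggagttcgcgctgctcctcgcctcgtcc
Cdh6: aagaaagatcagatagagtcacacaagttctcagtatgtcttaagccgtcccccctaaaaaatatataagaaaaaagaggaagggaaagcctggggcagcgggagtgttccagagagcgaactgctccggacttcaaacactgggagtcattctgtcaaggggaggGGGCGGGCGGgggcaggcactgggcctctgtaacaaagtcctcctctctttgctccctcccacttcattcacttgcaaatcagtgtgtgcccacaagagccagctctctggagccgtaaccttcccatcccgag
A match of letters is a description of the window and says nothing about binding.

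Of 18 tested bile duct markers, 13 were above 0, Krt7 and Krt19 were called, 7 were higher at an unadjusted p under 0.05 and none lower, and the median log2 fold change was 0.64 against 0.00 over all genes. Without mice 8, 17 and 19 the median was 0.58, with Krt7 called and 6 higher at an unadjusted p under 0.05. The markers did not move as a block: 5 were below 0, the lowest at -0.73. Muc1, the mucin of duct surfaces, stood at 2.42, 3.74 and 7.79 CPM in Homo and at 0.469, 1.04 and 3.02 CPM in WT (1.68 ± 0.39, edgeR adjusted p = 0.0941). Epcam, an adhesion protein of ducts and progenitors, stood at 0.985, 1.16 and 1.79 CPM in Homo and at 0.411, 0.695 and 0.882 CPM in WT (0.91 ± 0.29, edgeR adjusted p = 0.346). Both missed the threshold, although all Homo livers exceeded all WT livers for Epcam. Sox9, a transcription factor of the biliary lineage, had a difference near 0, with a median of 5.89 CPM in Homo and 5.98 CPM in WT (-0.08 ± 0.28, edgeR adjusted p = 0.981). The summed level of the marker list was 373 to 488 CPM in Homo and 295 to 417 CPM in WT, ranges that overlap. Among 18 biliary and progenitor transcription factors only Klf5 was called, and their median was 0.23.

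Further epithelial genes had fold changes as large as the called ones and missed the threshold. Gabrp, a GABA receptor subunit of secretory epithelia, was at 1.72, 5.08 and 9.15 CPM in Homo and at 0, 0.151 and 1.41 CPM in WT (3.32 ± 0.72, edgeR adjusted p = 0.0716). Kcne3, a potassium channel subunit that supports chloride secretion, was at 2.34, 8.55 and 11.1 CPM in Homo and at 1.17, 1.74 and 3.35 CPM in WT (2.20 ± 0.46, edgeR adjusted p = 0.0542). Both were highest in mouse 10 and lowest in mouse 17 among the Homo mice. Anxa8, an annexin, Tspan8, a tetraspanin, and Mal, a protein of apical transport, had 2.21 ± 0.54, 1.77 ± 0.43 and 1.602 ± 0.36 with edgeR adjusted p between 0.0899 and 0.141. All of these except Kcne3 were called without mouse number (edgeR adjusted p between 0.0194 and 0.0438). Of 18 annexins and tetraspanins none was called, and their median was 0.14. Of 16 genes of cAMP and chloride secretion only Ano1 was called, with a median of 0.05.

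Matrix genes were next. Col12a1, a collagen that decorates collagen fibres, was at 6.20, 7.77 and 8.95 CPM in Homo and at 3.26, 4.46 and 6.15 CPM in WT (1.01 ± 0.20, edgeR adjusted p = 0.0329). It was the only one called of 25 genes of collagens and basement membrane, of which 22 were above 0, 4 higher and 1 lower at an unadjusted p under 0.05, with a median of 0.18. Without mice 8, 17 and 19 that median was 0.07 and Col12a1 was not called (edgeR adjusted p = 0.15). Lama5, the laminin chain of mature epithelial basement membrane, was at 15.5, 23.2 and 30.1 CPM in Homo and at 7.83, 10.4 and 16.4 CPM in WT (0.93 ± 0.21, edgeR adjusted p = 0.089). The fibrillar collagen gene Col1a1, by contrast, overlapped widely, with 19.0, 23.96 and 32.0 CPM in Homo and 10.9, 23.4 and 33.4 CPM in WT (0.31 ± 0.27, edgeR adjusted p = 0.864). Of 23 matrix proteases, inhibitors and integrins, 20 were above 0, Itgb4 was called, and the median was 0.30, or 0.08 without mice 8, 17 and 19. Of 18 genes of activated stellate cells, the fibre-making cells of the injured liver, none was called, 15 were above 0 and the median was 0.23, or 0.07 without mice 8, 17 and 19. Postn, periostin, stood at 26.7, 31.6 and 39.6 CPM in Homo and at 15.7, 21.99 and 29.9 CPM in WT (0.50 ± 0.15, edgeR adjusted p = 0.251), and Acta2, smooth muscle actin, at 0.737, 2.18 and 2.59 CPM in Homo and at 0.834, 2.22 and 3.398 CPM in WT (-0.16 ± 0.38, edgeR adjusted p = 0.972).

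A few called genes outside chromosome 17 belong to none of these groups. Ahnak, a giant scaffold protein under the cell membrane, was at 199, 261 and 315 CPM in Homo and at 138, 157 and 181 CPM in WT (0.66 ± 0.13, edgeR adjusted p = 0.0333), with no overlap. Ly6a, the surface protein Sca-1 of stem cells, endothelium and lymphocytes, was at 33.5, 44.5 and 65.9 CPM in Homo and at 23.02, 28.8 and 32.7 CPM in WT (0.80 ± 0.16, edgeR adjusted p = 0.0431). Slc25a30, a mitochondrial carrier, was at 11.4, 21.3 and 24.4 CPM in Homo and at 9.75, 11.8 and 15.1 CPM in WT (0.94 ± 0.18, edgeR adjusted p = 0.031). Its lowest Homo value, from mouse 17, lay well under the other 5 Homo values, which started at 20.1 CPM, and Het livers averaged 24.7 CPM. Only 2 genes fell outside chromosome 17: Plscr2, a phospholipid scramblase, by 0.46 (SE 0.09, edgeR adjusted p = 0.0311), and Tmem8b, a membrane protein, by 0.99 (SE 0.19, edgeR adjusted p = 0.0329). Both overlapped between the genotypes in raw level, both had a slope on mouse number that was itself called, and neither was called without mouse number (edgeR adjusted p = 0.362 and 0.346).

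Genes of chromosome 17, which carries Pkd1, made up 20 of the 38 calls, 8 higher and 12 lower. That is 2.54% of its 788 tested genes, against 18 called of 15089 genes with a position elsewhere (0.119%). At an unadjusted p under 0.05 the shares were 16.2% on chromosome 17 and 7.55% elsewhere. Calls were densest beside Pkd1: 10 of the 75 genes tested within 1 Mb of it, 4 of 112 at 1 to 5 Mb, 2 of 122 at 5 to 10 Mb, 3 of 174 at 10 to 20 Mb and 1 of 305 farther away. These calls were also the steadiest. Of the 20, 9 were kept when any 1 of the 19 libraries was left out, against 4 of the 18 calls elsewhere. The genotypes did not overlap in 18 of the 20 and in 14 of the 18 elsewhere, a smaller contrast. The Pkd1 genotype and the chromosome segment around it come together in these mice, so their parts in these levels cannot be told apart.

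**Figure D3:**
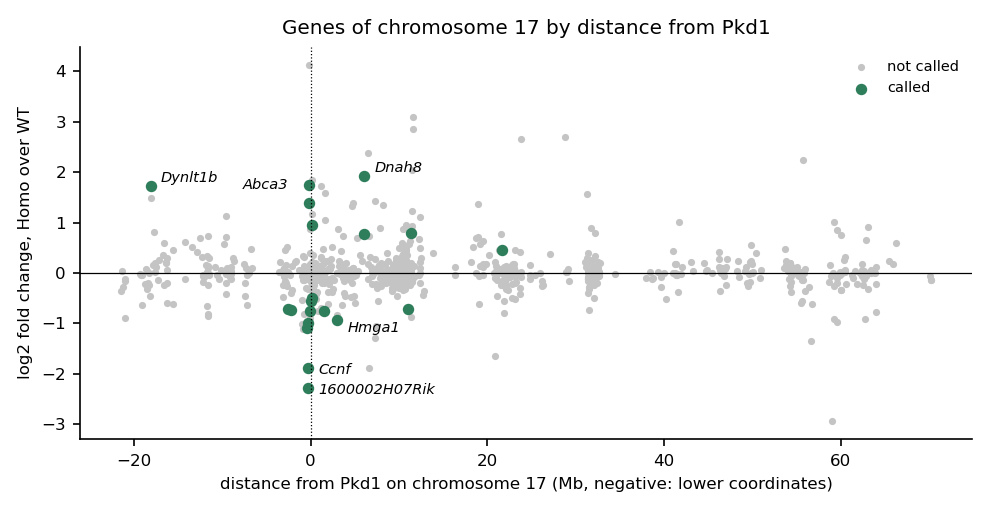
Log2 fold change of Homo over WT for the 788 tested genes of chromosome 17 against their distance from Pkd1 in Mb, with grey points for genes not called and green points for the 20 called. The green points gather around 0 Mb, where 10 lie within 1 Mb of Pkd1.

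Abca3, a lipid transporter known for loading surfactant lipid in lung cells (24351921 to 24410204, 0.138 Mb from Pkd1), had the smallest p of all genes. It was at 241, 273 and 292 CPM in Homo and at 65.6, 84.1 and 96.4 CPM in WT, a difference of 1.74 ± 0.09 (edgeR adjusted p = 8.77e-10), and Het livers averaged 197 CPM. Every Homo liver lay far above every WT liver, and the spread within each genotype was small. Abca3 shares exon bases with D330041H03Rik (24409481 to 24414513) on the other strand, which rose by 1.39 ± 0.15 (edgeR adjusted p = 5.4e-05). Reads from the shared bases cannot be told apart without a stated strand, but most of Abca3 lies outside D330041H03Rik. Abca3 was the only one called of 17 ABC lipid transporters, whose median was -0.05.

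On the same side of Pkd1, 5 genes were lower in Homo within 0.4 Mb. 1600002H07Rik, now Tedc2, a partner of delta and epsilon tubulin in centrioles, was at 19.2, 20.9 and 32.4 CPM in Homo and at 93.5, 106 and 133 CPM in WT. It fell by 2.27 on the log2 scale (SE 0.15, edgeR adjusted p = 3.91e-08), the largest fall among the called genes, and Het livers averaged 62.0 CPM. Ccnf, cyclin F of the G2 phase, was at 2.38, 5.16 and 7.59 CPM in Homo and at 12.2, 16.2 and 20.97 CPM in WT (-1.87 ± 0.24, edgeR adjusted p = 0.000793). Rnps1, a splicing factor, and Ntn3, a netrin, fell by 0.76 (SE 0.10, edgeR adjusted p = 0.00153) and 0.99 (SE 0.20, edgeR adjusted p = 0.0354). On the other side Gfer, a sulfhydryl oxidase known as a liver growth factor, and Rps2, a ribosomal protein, fell by 0.55 (SE 0.10, edgeR adjusted p = 0.0214) and 0.50 (SE 0.07, edgeR adjusted p = 0.00248), and Meiob, a meiosis gene, rose by 0.95 ± 0.16 (edgeR adjusted p = 0.0136). Rps2 was the only one called of 18 ribosomal proteins, whose median was 0.03, and Ccnf was 1 of 4 genes below 0 in a list of 16 mitosis genes.

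Atp6v0c, the ring-forming subunit of the vacuolar proton pump (24163865 to 24169678), was at 4.24, 4.50 and 5.05 CPM in Homo and at 9.03, 9.96 and 11.5 CPM in WT, a fall of 1.08 (SE 0.10, edgeR adjusted p = 9.22e-06). Its pseudogene Atp6v0c-ps2 on chromosome 6 was at 1.36, 1.98 and 2.61 CPM in Homo and at 0, 0.0802 and 0.179 CPM in WT, 49 to 90 counts per library against 0 to 6 counts (4.53 ± 0.42, edgeR adjusted p = 9.22e-06). Het livers averaged 7.25 CPM for the gene and 1.28 CPM for the pseudogene. Aligned to each other (GENCODE vM21 transcripts, GRCm38), all 465 bases of the pseudogene matched the gene's transcript with 1 difference, T111C, counted from the first base of the pseudogene. The stretch of 100 bases around it is shown because this letter alone separates them there, with the differing base in capitals.
Atp6v0c: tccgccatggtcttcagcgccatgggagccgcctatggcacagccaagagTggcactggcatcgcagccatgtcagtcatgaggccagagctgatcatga
Atp6v0c-ps2: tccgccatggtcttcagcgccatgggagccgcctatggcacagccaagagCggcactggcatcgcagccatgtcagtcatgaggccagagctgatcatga
Within the 465 matched bases, reads that do not cover the differing base can belong to either, and the longest run with no difference is 354 bases. The split between gene and pseudogene is therefore uncertain, and how reads with several matches were assigned is not given in the sources used here. Of 17 proton pump genes Atp6v0c alone was called, and the median was -0.03.

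Farther out on chromosome 17 the 4 called genes at 1 to 5 Mb were all lower, and those beyond went both ways. Tmem8, now Pgap6, Hmga1, a chromatin architecture protein of growing cells, Zfp943 and Gm7072 fell by 0.76, 0.92, 0.72 and 0.73, with edgeR adjusted p between 0.00352 and 0.0487. Hmga1 was at 15.8, 25.4 and 31.8 CPM in Homo and at 39.7, 49.99 and 62.0 CPM in WT. Glo1, which clears methylglyoxal, and its neighbour Dnah8, a dynein of sperm tails, about 6.0 Mb away, rose by 0.78 ± 0.15 and 1.92 ± 0.36 (edgeR adjusted p = 0.0339 and 0.031). Gtf2h4, a subunit of the repair and transcription factor TFIIH, fell by 0.72 (SE 0.11, edgeR adjusted p = 0.00255), and H2-T24, a non-classical MHC gene, rose by 0.80 ± 0.13 (edgeR adjusted p = 0.00968), both about 11 Mb away in the MHC region. Dynlt1b, a dynein light chain with near-identical copies beside it, rose by 1.73 ± 0.31 (edgeR adjusted p = 0.023) at 18.1 Mb on the other side. Tjap1, a tight junction protein, at 21.7 Mb, rose by 0.45 ± 0.09 (edgeR adjusted p = 0.0305) but was not called without mouse number (0.22, edgeR adjusted p = 0.457). Rps2, Hmga1, Dynlt1b and MHC genes have close copies, so their counts are uncertain where reads match several places. Of the 38 called genes, 37 are in the annotation, and 13 share exon bases with a gene on the opposite strand.

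Interferon-stimulated genes, which cells switch on in response to viral or own nucleic acid, leaned one way. All 26 tested members were above 0, 13 were higher at an unadjusted p under 0.05, and the median was 0.40. Without mice 8, 17 and 19 the median was 0.24, with 23 members above 0, 3 below and 8 higher at an unadjusted p under 0.05. Ifi44 alone was called, at 8.24, 9.70 and 11.4 CPM in Homo and at 4.56, 4.84 and 6.47 CPM in WT (0.98 ± 0.15, edgeR adjusted p = 0.00341). Every Homo liver was above every WT liver, but without mice 8, 17 and 19 the gene was not called (0.88, edgeR adjusted p = 0.109). Usp18, which ends interferon signalling, was at 3.35, 4.44 and 5.73 CPM in Homo and at 2.34, 2.64 and 3.20 CPM in WT (0.61 ± 0.15, edgeR adjusted p = 0.141). Irf7, a transcription factor of the response, and Oas1a, a sensor of double-stranded RNA, had 0.61 ± 0.14 and 1.03 ± 0.23 (edgeR adjusted p = 0.0834 for both), whereas Ifit1 had 0.14 ± 0.13 (edgeR adjusted p = 0.875). For Irf7 and Oas1a 3 of the 6 Homo livers lay above all WT livers, with mouse 8 the highest.

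Lymphocyte markers were scarce, macrophage and dendritic cell markers were not, and the summed levels overlapped between the genotypes. Of 9 T cell markers, 8 were above 0 and 6 were higher at an unadjusted p under 0.05, with a median of 0.83, but none was called. Their summed level was 8.64 to 14.7 CPM in Homo and 6.04 to 12.8 CPM in WT. Without mice 8, 17 and 19 the median was 0.99 over 10 tested markers, 5 of them higher at an unadjusted p under 0.05. Cd3e, a chain of the T cell receptor complex, stood at 0.575, 0.705 and 1.70 CPM in Homo and at 0.445, 0.554 and 1.03 CPM in WT (0.81 ± 0.38, edgeR adjusted p = 0.615). The T cell median and the interferon median were both above 0, and the part of T cells in the interferon values was not tested. Macrophage markers lay around 0: none of 15 Kupffer cell and macrophage genes reached an unadjusted p under 0.05, the median was 0.01, and the sum was 271 to 378 CPM in Homo and 309 to 386 CPM in WT. Clec4f, which marks resident Kupffer cells, had a median of 18.2 CPM in Homo and 19.1 CPM in WT (0.05 ± 0.11, edgeR adjusted p = 0.964). Of 12 genes of scar- and lipid-associated macrophages only Spp1 had an unadjusted p under 0.05, and it is also a duct gene. Spp1, osteopontin, stood at 105, 125 and 141 CPM in Homo and at 50.4, 66.1 and 148 CPM in WT (0.63 ± 0.27, edgeR adjusted p = 0.552). Tnf and Ccl2, which drive inflammation, were near the floor in both genotypes, with medians of 0.211 and 0.151 CPM in Homo and 0.151 and 0.139 CPM in WT, and neither was called (edgeR adjusted p = 0.951 and 0.865).

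Lists of growth genes had medians on both sides of 0. Of 17 genes of G1 and S entry, 7 were above 0, 3 were higher at an unadjusted p under 0.05, none was called and the median was -0.08. Ccnd1, cyclin D1, was at 34.7, 45.8 and 71.5 CPM in Homo and at 13.2, 21.6 and 31.6 CPM in WT, with no overlap, and its difference of 0.89 ± 0.26 missed the threshold (edgeR adjusted p = 0.249). Without mouse number it was called (1.06, edgeR adjusted p = 0.045). Mki67, a protein of dividing cells, was at 11.2, 14.6 and 17.3 CPM in Homo and at 6.24, 8.28 and 12.2 CPM in WT (0.73 ± 0.21, edgeR adjusted p = 0.231). Of 17 DNA replication genes, 13 were above 0 and none was called. At an unadjusted p under 0.05, 3 of them were higher and none lower. The replication median was 0.07, or -0.01 without mice 8, 17 and 19. Of 16 mitosis genes, 12 were above 0 and 3 were higher at an unadjusted p under 0.05. Ccnf, which lies beside Pkd1 on chromosome 17, was the 1 called and lower. Their median was 0.34, or 0.20 without mice 8, 17 and 19. Of 17 genes of p53 and senescence none reached an unadjusted p under 0.05, and the median was 0.00.

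Tumour markers and signalling pathways held no call. Of 17 oncofetal and liver tumour markers, 12 were above 0 and 5 were higher at an unadjusted p under 0.05, with a median of 0.22, or -0.15 without mice 8, 17 and 19. Cd24a, a surface protein of progenitors and ducts, was at 1.83, 3.68 and 6.76 CPM in Homo and at 0.821, 1.42 and 2.60 CPM in WT (1.37 ± 0.31, edgeR adjusted p = 0.0908). Afp, the fetal albumin-like protein, and Gpc3, a glypican of liver cancer, had close medians, 0.984 and 0.962 CPM in Homo and 1.13 and 0.908 CPM in WT (edgeR adjusted p = 0.968 and 0.973). Medians were 0.10 over 13 targets of YAP and TAZ, 0.11 over 18 Notch genes and 0.07 over 20 genes of TGFB and BMP. In these, Jag1, a Notch ligand that patterns bile ducts, had 0.53 ± 0.16 (edgeR adjusted p = 0.298), and Tgfb2, a ligand that promotes fibrosis, 0.80 ± 0.23 (edgeR adjusted p = 0.222). The 20 primary cilium genes had a median of 0.01, the 20 genes of calcium entry and release 0.04, and the 15 genes of polycystins and polycystic liver disease -0.02. Genes known to differ between male and female livers, which bear on the unlabelled sex of the mice, had medians of 0.08 over 17 male-biased and 0.12 over 9 female-biased members.

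Among hepatocyte genes, lists of amino acid, periportal and lipoprotein genes had medians under 0, those of the central zone, fatty acid oxidation and cholesterol synthesis above 0, and no member was called. Of 21 genes of amino acid breakdown and the urea cycle, 19 were below 0, 5 were lower at an unadjusted p under 0.05 and none higher, and the median was -0.21, or -0.24 with 9 lower without mice 8, 17 and 19. Sds, which breaks down serine, was at 181, 201 and 286 CPM in Homo and at 179, 285 and 376 CPM in WT (-0.45 ± 0.16, edgeR adjusted p = 0.426). Hpd, of tyrosine breakdown, was at 411, 498 and 595 CPM in Homo and at 501, 587 and 699 CPM in WT (-0.30 ± 0.10, edgeR adjusted p = 0.4). Of 15 genes of periportal hepatocytes, those near the portal vein and the ducts, 12 were below 0 and the median was -0.25. The 16 Wnt target genes of the central zone had a median of 0.05, with none at an unadjusted p under 0.05. Bhmt and Gnmt, enzymes of methyl group metabolism, had -1.01 ± 0.35 and -0.33 ± 0.12 (edgeR adjusted p = 0.406 and 0.414). Of 19 oxidative phosphorylation genes 18 were below 0, but the median was only -0.06 and 1 reached an unadjusted p under 0.05.

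Lipid genes gave the same picture of small values. Of 19 apolipoprotein and lipoprotein assembly genes, 5 were lower at an unadjusted p under 0.05, none higher, and the median was -0.10, or -0.11 without mice 8, 17 and 19. Apoe, a ligand for lipoprotein uptake, was at 21499, 23201 and 24869 CPM in Homo and at 25051, 26058 and 27983 CPM in WT. The groups did not overlap, yet the difference was only -0.15 ± 0.05 (edgeR adjusted p = 0.316). Apob, the frame of very-low-density lipoprotein, had medians of 9804 CPM in Homo and 9519 CPM in WT (edgeR adjusted p = 0.973). Lipid droplet genes had a median of 0.01, with Plin2, which coats droplets, at a median of 178 CPM in Homo and 186 CPM in WT (0.01 ± 0.16, edgeR adjusted p = 0.996). Fatty acid oxidation genes likewise had a median of 0.01. Slco1a4, a carrier of bile acids and drugs, was at 12.2, 22.2 and 32.9 CPM in Homo and at 31.1, 45.0 and 66.0 CPM in WT (-1.05 ± 0.23, edgeR adjusted p = 0.0834), and it was called without mouse number (-1.03, edgeR adjusted p = 0.0248). Sdr9c7, a short-chain dehydrogenase, and Car14, a carbonic anhydrase of hepatocyte membranes, had -0.62 ± 0.17 and -0.63 ± 0.17 (edgeR adjusted p = 0.212 for both), and both were called without mouse number.

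Several functions depended on whether mouse number was in the fit. Of 68 gene lists with at least 5 tested members, 43 had a median above 0 and 25 below, 41 lay within 0.1 of 0, and 12 changed side between the fits with and without mouse number. The unfolded protein response had a median of 0.04 with mouse number and -0.28 without, fatty acid and triglyceride synthesis 0.05 with and -0.20 without, and cholesterol synthesis 0.20 with and 0.00 without. Hspa5, the chaperone BiP, was at 149, 215 and 234 CPM in Homo and at 170.2, 243 and 479.9 CPM in WT, the highest in mouse 1, and its difference was 0.08 ± 0.14 with mouse number and -0.50 without (edgeR adjusted p = 0.954 and 0.381). Fasn, fatty acid synthase, had 0.18 ± 0.37 with mouse number and -0.69 without (edgeR adjusted p = 0.962 and 0.524). Srebf1, the transcription factor that drives fatty acid synthesis, had -0.29 ± 0.14 and -0.61 (edgeR adjusted p = 0.633 and 0.15). Cyp7a1, the rate-limiting enzyme of bile acid synthesis, was at 261, 418 and 530.5 CPM in Homo and at 54.7, 231 and 453 CPM in WT, and its difference was -0.08 ± 0.28 with mouse number and 0.72 without (edgeR adjusted p = 0.981 and 0.571). The bile duct list moved little, at 0.64 with mouse number and 0.69 without.

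**Figure D4:**
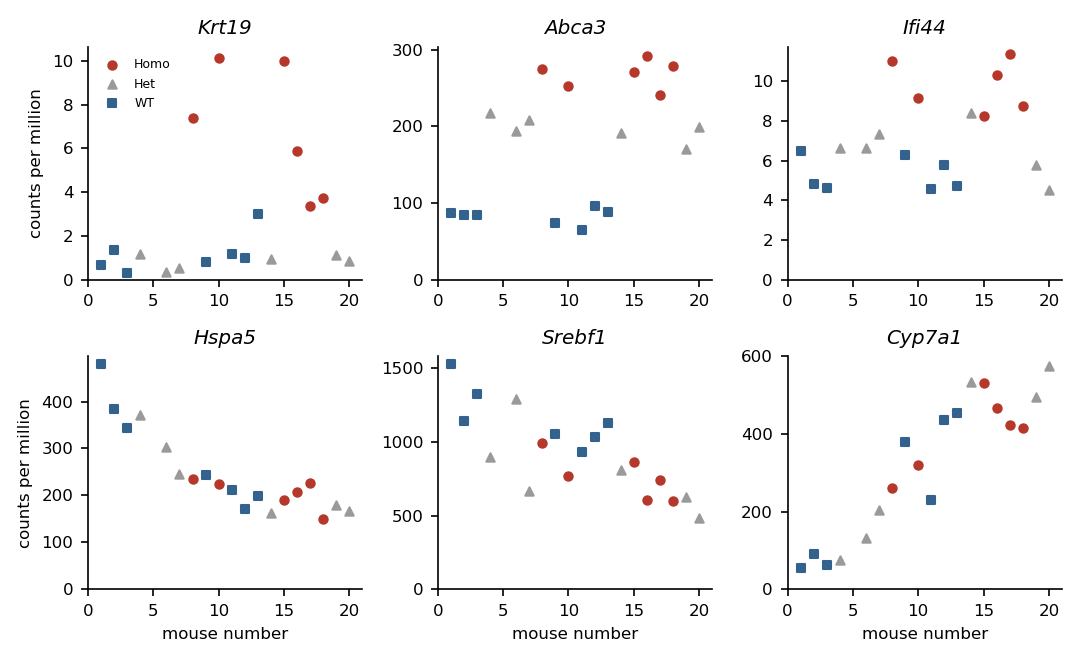
Level in CPM against the mouse number of the sample titles for 6 genes, with red circles for Homo, grey triangles for Het and blue squares for WT. For Krt19, Abca3 and Ifi44 no Homo point lies as low as a WT point, whereas Hspa5 and Srebf1 are high and Cyp7a1 is low in WT mice 1 to 3, at numbers that hold no Homo mouse.

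Within mice 8 to 13, where 2 Homo mice and 4 WT mice have neighbouring numbers, a fit without mouse number was made. All 38 called genes kept their direction, but these mice are among those that gave the calls, so this is no separate support. Only 2 were called there, Abca3 and 1600002H07Rik, both beside Pkd1 (edgeR adjusted p = 0.0292 and 0.00138). Abca3 was at 1.70 there on the log2 scale. Krt7 at 3.14, Cdh6 at 2.98 and Ccnf at -2.26 were not called in these mice. Without mice 1 to 3, 22 genes were called, 19 of them among the 38: 13 of the 20 on chromosome 17 and 6 of the 18 elsewhere.

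**Figure D5:**
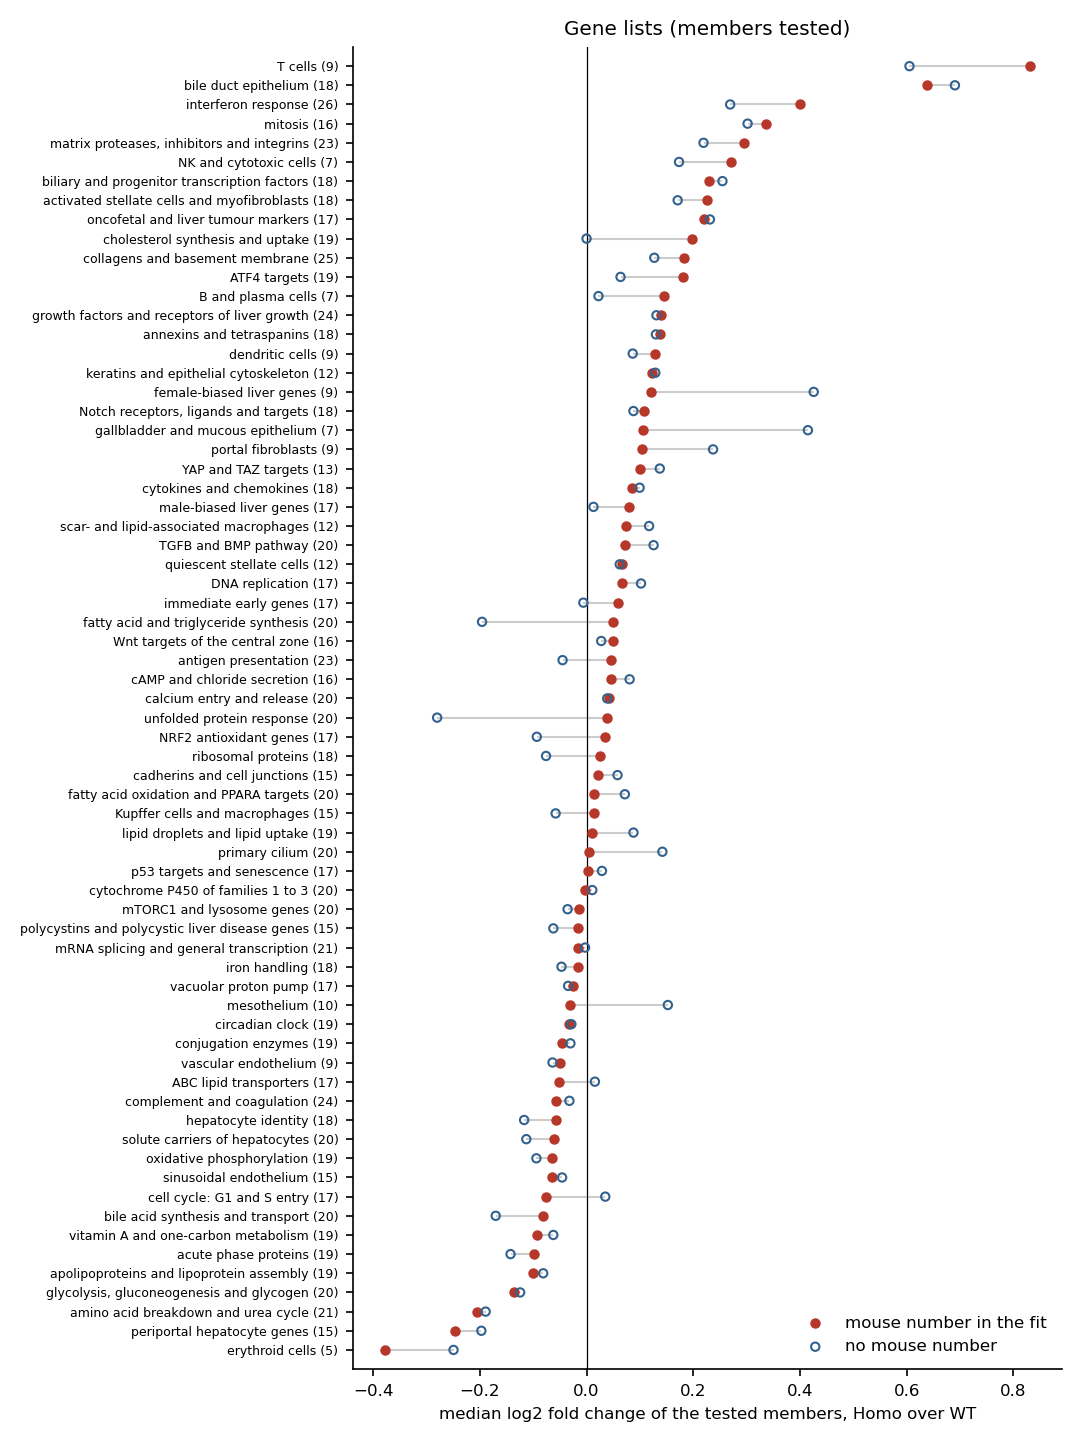
Median log2 fold change of Homo over WT for each of 68 gene lists with at least 5 tested members, the number of members in brackets, with red points for the fit with mouse number and open blue points for the fit without. T cells (0.83), bile duct epithelium (0.64) and interferon response (0.40) lie at the high end and periportal hepatocyte genes (-0.25) and amino acid breakdown (-0.21) near the low end, next to the 5 erythroid genes, and grey lines show how far each median moved between the fits.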

How the data were processed

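Total RNA of 19 livers was sequenced, 6 Homo, 6 Het and 7 WT. The authors deposited raw counts of reads per gene, whole numbers and not normalized, and the submitters' processing notes name STAR 2.7.2b, featureCounts 1.6.4 and the build GRCm38. Strand setting, annotation and multi-mapping rule: not given in the sources used here. No label says that the mice came from separate litters or batches, and p-values measure the spread between these mice.

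Genotype came from the labels. Genes were filtered with filterByExpr, which kept 16463 of 35976 rows, and scaled by TMM. All 19 libraries entered 1 fit of edgeR 4.0.16 (R 4.3.3) with genotype and mouse number as terms, tested by quasi-likelihood with Benjamini-Hochberg adjustment over all genes at 0.05. CPM use the TMM library sizes, and log2 CPM a prior count of 2. Fold changes are those of the edgeR fit. Counting error is small at 25.8 to 42.1 M counts per library, except for genes of few counts. In 27 rows the name had been turned into a date, and these hold 0.145% to 0.174% of the counts. They have no gene name and are not described. The script was tested on simulated counts.

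Named genes are the called genes with an official symbol, the 15 largest changes in each direction among those called without mouse number, the first 4 genes of each of 72 lists and up to 5 of each list with the smallest p, plus Pkd1, Pkd2 and Tsc2. Called genes with Rik or Gm symbols were named after their values were seen. The members, the lists and the rule were chosen with earlier results of these data known. Of the 1286 list entries, 7 have no row in the counts. Lists are described by counts and medians only. Positions came from RefSeq and GENCODE tables, by symbol for 15369 genes, by older symbol for 508 and not at all for 586. Alternatives were mouse number left out or in other forms, fewer mice, DESeq2 1.42.0, limma 3.58.1 (voom), DESeq2 size factors, other filters and each library left out.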

Additional observations from a re-analysis of the deposited data

Results flagged for a closer look

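In 264 groups of 6 or 7 mice, made of the named genes in Homo and in WT, 10 held a mouse whose distance from its nearest neighbour passed Dixon's 95% limit, where chance alone flags about 1 in 20 groups. The 10 are no more than that share, so the values below are descriptions of single mice. Clec4f stood out at the high end in Homo mouse 16, at 24.7 CPM against 16.4 to 18.5 in the other Homo mice, and at the low end in WT mouse 3, at 16.1 CPM against 18.9 to 21.1 in the other WT mice. Slc25a30 was lowest in Homo mouse 17, at 11.4 CPM against 20.1 to 24.4. Dgat2, of triglyceride synthesis, was highest in the same mouse, at 153 CPM against 132 to 139. H2-Q7, an MHC gene, was lowest in Homo mouse 18, at 46.3 CPM against 60.4 to 69.5, and Serpina1c, an antitrypsin gene, was lowest in Homo mouse 10, at 519 CPM against 641 to 727.

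In WT, mouse 12 was apart in 3 genes. D330041H03Rik was at 7.25 CPM in it against 3.84 to 5.02 in the other WT mice, H2-T24 at 11.7 CPM against 7.27 to 7.98, and Ctgf, a YAP target, at 1.38 CPM against 3.14 to 5.69. D330041H03Rik and H2-T24 lie on chromosome 17, and mouse 12 was on the side of the Homo mice in both. Zfp943 was lowest in WT mouse 1, at 3.73 CPM against 4.31 to 4.78.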

How the results depend on the processing

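No paired analysis was possible because each mouse has its own number and replicate numbers follow accession order only. Under the settings that moved the count of 38 calls (24 higher, 14 lower) by over 1.5 times, the called genes numbered 79 (48 higher, 31 lower) with no mouse number, 18 (14 and 4) in the 13 Homo and WT libraries alone with mouse number, 65 (46 and 19) in those 13 without it, 133 (85 and 48) by DESeq2, 22 (10 and 12) without mice 1 to 3, 2 (1 and 1) in mice 8 to 13, 61 (42 and 19) at an adjusted p under 0.10, and 15 (8 and 7) without mice 8, 17 and 19, an alternative chosen after seeing the data. The cause was not tested, other than that fewer mice entered some of these fits. Leaving out 1 library in turn gave 17 to 47 called genes, 7 to 34 higher and 8 to 16 lower; the count was 17 without Homo mouse 8, 17 without Homo mouse 10, 25 without Homo mouse 15, 24 without Homo mouse 16, 23 without WT mouse 3 and 22 without WT mouse 11, and 15 genes were higher without WT mouse 13. DESeq2 and edgeR with DESeq2 size factors called all 38. Over all these settings no called gene reversed. Of the 38, 13 kept their call whichever library was left out, 8 lost it in 1 to 5 cases and 17 in 6 or more, with adjusted p up to 0.23. Other forms of mouse number gave 34 (its square) and 40 (3 classes) called genes, voom 35, no filter 34 and a filter at 1 CPM in 6 libraries 41. Of 68 list medians, 3 moved by over 1 SD with no mouse number and 5 without mice 8, 17 and 19. Genes of few counts, Krt7 in WT and Atp6v0c-ps2 in WT among them, have fold changes that depth limits.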
